A study of Mus musculus with 20 samples.

Results

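The 38 genes described here carry glucose into the cell, break it down to pyruvate and lactate, and hand pyruvate to the mitochondrion. They were chosen by symbol: 4 glucose transporters, 3 hexokinases and the phosphoglucose isomerase Gpi1, 7 phosphofructokinase and Pfkfb genes, 10 genes of the lower glycolytic steps, 4 genes that make or carry lactate, and 9 genes of pyruvate entry and the pyruvate dehydrogenase complex. All 38 were matched to 1 Ensembl ID each among the 63318 genes of the count table. The symbol Aldoa is also carried by a second ID, with 24.06 counts on average against 56716.12 for the member, which was left aside.

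The data are poly(A) RNA of mouse heart tissue, read as short-read libraries in 4 groups of 4 libraries. Myocardial infarction (MI) hearts were taken 72 h after surgery and compared with their sham-operated hearts (MISham). Ischemia-reperfusion (IR) hearts had "LCA", an abbreviation that the labels do not explain, for 40 min and then 72 h of restored blood flow, and were compared with their own shams (IRSham). The MI and MISham samples held infarct core and peripheral tissue and the IR and IRSham samples core tissue, and for that reason injury and sampling site cannot be told apart between the surgeries. Strain, genotype, age and sex are not given in the labels. No label says that libraries of a group came from separate animals, and the p-values here cover the spread among libraries, which may be technical. The series' 4 long-read libraries were not analysed here.

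Glucose enters cells through facilitative transporters of the Slc2a family, is trapped by hexokinase, committed to glycolysis by phosphofructokinase and split, oxidised and dephosphorylated to pyruvate. Pyruvate is reduced to lactate by lactate dehydrogenase or enters mitochondria through the Mpc1-Mpc2 carrier, where the pyruvate dehydrogenase complex turns it into acetyl-CoA; the Pdk kinases switch that complex off. The healthy adult heart draws most of its energy from fatty acids and uses muscle forms of many of these enzymes, while leukocytes, fibroblasts and growing cells use other paralogs, and hypoxia-inducible factors raise several of the genes in cells short of oxygen.

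Library totals were 57215382 to 63070805 counts for MI and 24273984 to 27569120 for MISham, and 26175373 to 31832969 for IR and 25518543 to 29759773 for IRSham. Several lists of cell markers moved with the injury groups. All 12 cardiomyocyte markers (such as Myh6 and Tnnt2) were lower after both injuries, and their summed level was 18192 to 32401 CPM (counts relative to the library total, scaled between libraries by edgeR's TMM method) in MI against 96704 to 113102 in MISham, and 19574 to 38769 in IR against 101077 to 107311 in IRSham. Monocyte and macrophage markers were higher in 10 of 10 cases after MI (summed 2406 to 3382 CPM, against 543 to 1277 in MISham) and in 9 of 10 after IR (2720 to 4721 CPM, against 974 to 1609 in IRSham). Fibroblast markers were higher in 6 of 8 and lower in 1 of 8 after MI (18941 to 23388 CPM, against 2306 to 8354 in MISham) and higher in 7 of 8 after IR (23452 to 27953 CPM, against 5564 to 8210 in IRSham). Neutrophil markers were higher in 5 of 6 after MI (182 to 422 CPM, against 29.6 to 110 in MISham) and in 2 of 6 after IR (92.5 to 177 CPM, against 30.6 to 111 in IRSham). Lymphocyte markers were higher in 5 of 6 after MI and 1 of 6 after IR, at summed levels of 10.5 CPM or less in every library. Endothelial markers were higher in 3 and lower in 2 of 6 after MI, and higher in 1 and lower in 3 of 6 after IR. Smooth muscle and pericyte markers were higher in 4 and lower in 2 of 6 after MI, higher in 2 and lower in 2 after IR, and 2 of 6 were lower in MISham than in IRSham. The test described below called 34.8% of all genes higher and 30.2% lower after MI, and 29.5% and 28.2% after IR. Median log2 changes were 0.21 after MI and -0.16 after IR for endothelium, and 0.13 after IR for smooth muscle and pericytes. These lay near the all-gene medians of 0.08 after MI and 0.03 after IR. No marker of these 7 lists was at 0 in every library. Of the mitochondrially encoded transcripts 8 of 8 tested were lower after both injuries (medians -2.22 after MI and -1.82 after IR), and mt-Cytb was listed at 0 throughout. IR replicates 1 and 3 kept more cardiomyocyte RNA than IR replicates 2 and 4, and MISham replicates 1 and 3 had more immune RNA than MISham replicates 2 and 4. Values without them are given beside the genes that differ most between these replicates. Those libraries were picked by their own RNA levels, so larger changes without them follow from the choice and are no added evidence. In bulk tissue, fewer cells of a type and less RNA per cell cannot be told apart, and the part of these cell shifts in the gene values below was not tested.

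After MI, 35 of the 38 genes passed the test: 13 were higher and 22 lower than in MISham. After IR 34 passed, with 10 higher and 24 lower than in IRSham. The test was edgeR's quasi-likelihood test on counts with a Benjamini-Hochberg adjusted p under 0.05 over 19741 genes, and changes are log2 fold changes ± standard error (SE), injured over sham. Over all genes tested 34.8% were called higher and 30.2% lower after MI, and 29.5% higher and 28.2% lower after IR, so that over 50% of all genes tested moved, and the share of the 38 called lower lay above that of all genes. The median change of the 38 genes was -0.70 after MI, against 0.08 over all genes, and -0.86 after IR, against 0.03 over all genes. The genes called higher after IR were all among those called higher after MI, which also held Aldoc, Pgk1 and Slc16a3. Hk1 and Pfkl were called lower in the IR comparison and were not called in the MI comparison, and Ldha was called in neither. Without MISham replicates 1 and 3, 34 genes were called after MI, and without IR replicates 1 and 3, 34 were called after IR.

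**Figure D1:**
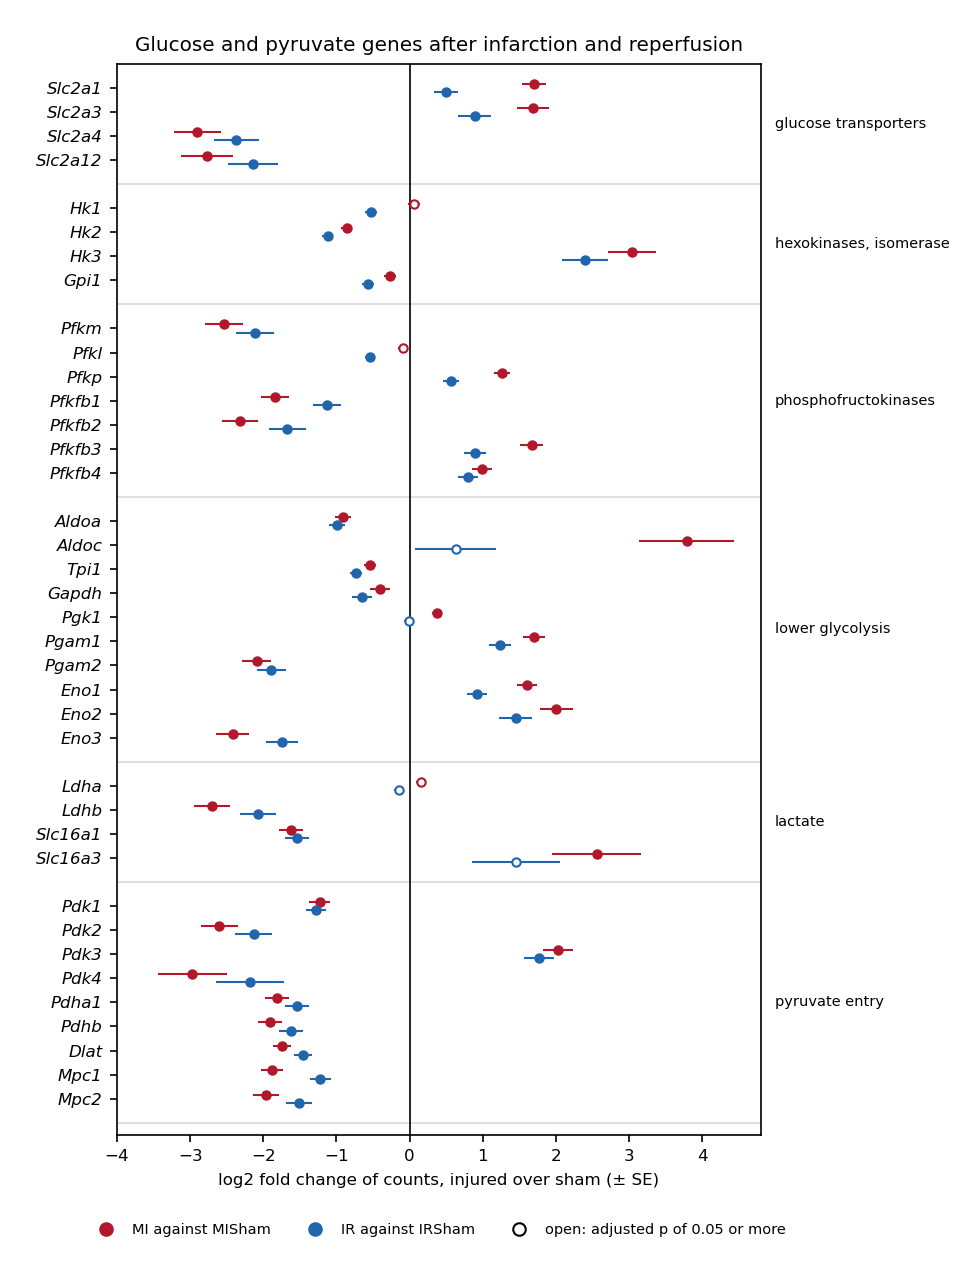
Log2 fold change of counts (x axis, ± SE) for each of the 38 genes (y axis), grouped by role, for MI against MISham in red and IR against IRSham in blue, with open points where the adjusted p was 0.05 or more. Each group of transporters and enzymes holds genes on both sides of 0, from Slc2a4 at -2.90 to Slc2a1 at 1.70 after MI among the transporters, while the genes of pyruvate entry and oxidation lie on the left apart from Pdk3. Gpi1 and Pfkl after MI and Pgk1 after IR are among the points whose sign turns with counts scaled by library size alone. Genes whose sign differs by summed TPM are named in the text.

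A description of promoter letters is given for 3 genes that bear on the paragraphs below. RefSeq windows of 300 bases, 250 before and 50 after the transcription start on GRCm38.p6, were searched for ACGTG on both strands, the core of the site that hypoxia-inducible factors bind; CACGTG, the E-box letters that Myc-type factors read, holds it on both strands. Capitals mark the matches, and Slc2a1 lies at chr4:119108495-119108794 on the + strand, Hk2 at chr6:82774405-82774704 on the - strand and Ldha at chr7:46845554-46845853 on the + strand.
Slc2a1: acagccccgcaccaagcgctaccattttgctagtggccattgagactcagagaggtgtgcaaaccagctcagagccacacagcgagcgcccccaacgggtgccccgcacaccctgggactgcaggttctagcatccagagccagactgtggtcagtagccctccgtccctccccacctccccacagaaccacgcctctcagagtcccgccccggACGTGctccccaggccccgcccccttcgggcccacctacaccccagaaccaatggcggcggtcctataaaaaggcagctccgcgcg
Hk2: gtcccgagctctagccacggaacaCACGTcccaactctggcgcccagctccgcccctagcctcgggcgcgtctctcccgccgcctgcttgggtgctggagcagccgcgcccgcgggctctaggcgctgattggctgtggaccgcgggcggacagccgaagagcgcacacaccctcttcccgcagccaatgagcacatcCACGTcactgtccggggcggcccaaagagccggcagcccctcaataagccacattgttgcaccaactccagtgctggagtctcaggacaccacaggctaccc
Ldha: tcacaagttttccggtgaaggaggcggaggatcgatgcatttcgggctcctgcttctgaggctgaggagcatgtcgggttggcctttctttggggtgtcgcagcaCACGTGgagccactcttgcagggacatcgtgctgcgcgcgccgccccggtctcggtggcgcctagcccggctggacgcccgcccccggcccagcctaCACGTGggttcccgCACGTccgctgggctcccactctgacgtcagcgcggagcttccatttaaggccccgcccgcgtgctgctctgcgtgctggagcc
The Slc2a1 window held 1 match, the Hk2 window 2 and the Ldha window 5, of which 4 fall in pairs on 2 CACGTG. Of the 38 genes 36 had a window (not Slc2a3 and Slc2a4), and 22 of their 55 windows (40%) held the letters, against 19.6% of all 32851 windows. The Ldha window shown was the one with the most matches, and its other window held 0. By MI call, 8 of 12 genes called higher, 8 of 21 called lower and 2 of 3 not called had a window with a match. These are shares of genes with any matching window. No such share was computed over all genes, and the 19.6% of windows is not comparable. A match is a description of the letters and no evidence of binding.

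Among the glucose transporters, the insulin-responsive Slc2a4 (GLUT4) and Slc2a12 (GLUT12) fell, and the basal transporter Slc2a1 (GLUT1) and the high-affinity Slc2a3 (GLUT3) rose, by counts. Slc2a4 had 58.4, 59.3, 109 and 82 CPM in MI replicates 1 to 4, against 574, 591, 534 and 607 CPM in MISham. It had 163, 57, 165 and 69.6 CPM in IR, against 621, 557, 596 and 580 CPM in IRSham. Every injured library lay below every sham library, and IR replicates 1 and 3 kept the most. The changes were -2.90 ± 0.32 (adjusted p = 1.62e-06) after MI and -2.37 ± 0.31 (adjusted p = 1.42e-05) after IR, the IR change being -3.22 without IR replicates 1 and 3. Slc2a12 ran from 0.999 to 2.52 CPM in MI against 10.8 to 12 CPM in MISham, and from 1.51 to 4.71 CPM in IR against 7.19 to 13.8 CPM in IRSham. Its changes were -2.77 ± 0.35 (adjusted p = 2.74e-06) after MI and -2.14 ± 0.34 (adjusted p = 5.18e-05) after IR by counts, the IR change being -2.89 without IR replicates 1 and 3, and by summed TPM it was called after MI (-1.02 ± 0.25, adjusted p = 0.00137) but not after IR (-0.45 ± 0.25, adjusted p = 0.109).

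Slc2a1 had 85, 65.9, 82.7 and 84.2 CPM in MI, against 25.2, 22.3, 28.3 and 22.1 CPM in MISham. In IR it had 27.5, 40.4, 49 and 47.8 CPM, against 30.3, 27.6, 24 and 34.9 CPM in IRSham. The MI libraries stood clear of their shams, while IR replicate 1 lay within the IRSham range. The change was 1.70 ± 0.16 (adjusted p = 1.71e-07) after MI and 0.50 ± 0.16 (adjusted p = 0.0141) after IR. The IR call was lost without IR replicate 3 (0.40, adjusted p = 0.0517) or without IRSham replicate 3 (0.41, adjusted p = 0.0501). Slc2a3 averaged 11.8 ± 3.26 CPM in MI against 3.64 ± 1.14 CPM in MISham, and 9.12 ± 1.14 CPM in IR against 4.94 ± 0.857 CPM in IRSham (SD, n = 4 each), with groups that did not overlap in either comparison.

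On a per-length scale Slc2a4 and Slc2a1 led in all 4 groups. In TPM, an abundance corrected for transcript length and scaled to the same sum in every library, summed over a gene's annotated transcripts, Slc2a4 averaged 40.8 in MI hearts, against 184 in MISham hearts, and 56.7 in IR hearts, against 197 in IRSham hearts. Slc2a1 came next with 37.1 TPM in MI hearts, against 7.05 in MISham hearts, and 19.9 in IR hearts, against 9.44 in IRSham hearts. In MI the libraries of Slc2a4 (32.1 to 55 TPM) spanned those of Slc2a1 (33.3 to 39.7 TPM), whereas in both sham groups Slc2a4 was far above. Slc2a3 averaged 5.05 ± 0.846 TPM in MI hearts, against 1.21 ± 0.509 in MISham hearts, and 4.02 ± 0.677 in IR hearts, against 1.63 ± 0.704 in IRSham hearts, and Slc2a12 0.47 ± 0.144 TPM in MI hearts, against 1.97 ± 0.134 in MISham hearts, and 1.45 ± 1.17 in IR hearts, against 2.13 ± 0.561 in IRSham hearts. Slc2a12 was thus the lowest of the 4 in both injured groups, and Slc2a3 in both sham groups, where in IRSham the 2 lay within each other's spread.

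The hexokinases, which trap glucose as glucose 6-phosphate, moved apart from one another. Hk2, the hexokinase of insulin-sensitive muscle, fell by counts: it had 310, 263, 303 and 292 CPM in MI against 545, 531, 523 and 528 CPM in MISham. It had 263, 220, 258 and 270 CPM in IR against 567, 541, 531 and 564 CPM in IRSham. The groups did not overlap, and the changes were -0.86 ± 0.08 (adjusted p = 4.01e-08) after MI and -1.12 ± 0.08 (adjusted p = 2.33e-08) after IR by counts. By summed TPM Hk2 was not called after MI (-0.11 ± 0.10, adjusted p = 0.28) and was called lower after IR (-0.51 ± 0.10, adjusted p = 0.000169). Hk3, the hexokinase of myeloid leukocytes, rose, with 51.6, 68, 42.2 and 53.1 CPM in MI against 10.5, 3.78, 8.23 and 3.41 CPM in MISham. In IR it had 46.6, 86.1, 52.7 and 63.4 CPM against 8.47, 11.2, 13.1 and 14.5 CPM in IRSham. The MI change was 3.04 ± 0.33 (adjusted p = 1.67e-06). MISham replicates 1 and 3 were the higher ones among the MI shams, so leaving them out raises the change, to 3.91. The IR change was 2.40 ± 0.32 (adjusted p = 1.65e-05). Of the markers given above, those of monocytes and macrophages were higher in 10 of 10 cases after MI and 9 of 10 after IR. Those of neutrophils were higher in 5 of 6 after MI but in only 2 of 6 after IR. The part of these cells in the Hk3 values was not tested.

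Hk1, the ubiquitous hexokinase, had 225, 207, 270 and 256 CPM in MI against 236, 234, 219 and 229 CPM in MISham, ranges that overlap (change 0.06 ± 0.08, adjusted p = 0.501). It had 198, 212, 204 and 215 CPM in IR against 308, 302, 292 and 296 CPM in IRSham, where every IR library lay below every sham (change -0.53 ± 0.08, adjusted p = 1.11e-05). The changes of Hk1 depend on the scale: after MI it was 0.75 ± 0.08 (adjusted p = 5.7e-07) by summed TPM and 0.00 (adjusted p = 0.994) with TPM rescaled as the counts were, and after IR it was 0.16 ± 0.08 (adjusted p = 0.0795) by summed TPM and -0.47 (adjusted p = 4.37e-05) once rescaled. Gpi1, which turns glucose 6-phosphate into fructose 6-phosphate, was at 509 to 611 CPM in MI against 642 to 713 CPM in MISham, with 458 to 537 CPM in IR against 693 to 778 CPM in IRSham. Its change was -0.27 ± 0.08 (adjusted p = 0.00746) after MI and -0.57 ± 0.08 (adjusted p = 1.32e-05) after IR by counts. By summed TPM it was 1.10 ± 0.26 (adjusted p = 0.00115) after MI and 0.03 ± 0.26 (adjusted p = 0.921) after IR, so that its direction differs between the scales. The order of the levels depends on the table: by TPM it was in IRSham Hk2 (71.5), Hk1 (61.9) and Hk3 (3.03), and in IR Hk1 (69.7), Hk2 (49.9) and Hk3 (22.2), whereas counts per length in IR averaged 100 for Hk1 and 174 for Hk2.

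Of the phosphofructokinases, the committed step of glycolysis, the muscle subunit Pfkm fell, the platelet subunit Pfkp rose and the liver subunit Pfkl lay between them. Pfkm had 186, 185, 335 and 232 CPM in MI against 1320, 1493, 1256 and 1400 CPM in MISham. In IR it had 411, 177, 404 and 198 CPM against 1349, 1288, 1264 and 1231 CPM in IRSham. IR replicates 1 and 3 were the highest of the injured libraries, and all injured libraries lay below all shams. The changes were -2.54 ± 0.26 (adjusted p = 4.85e-07) after MI and -2.11 ± 0.26 (adjusted p = 4.65e-06) after IR, the IR comparison giving -2.78 without IR replicates 1 and 3. Pfkp had 279, 219, 253 and 270 CPM in MI against 114, 106, 114 and 92.4 CPM in MISham. It had 158, 222, 188 and 230 CPM in IR against 135, 134, 137 and 134 CPM in IRSham. No injured library of Pfkp overlapped a sham, with changes of 1.26 ± 0.11 (adjusted p = 2.77e-08) after MI and 0.57 ± 0.11 (adjusted p = 0.000193) after IR. Pfkl lay at 146 to 180 CPM in MI against 173 to 183 CPM in MISham, with 120 to 138 CPM in IR against 173 to 193 CPM in IRSham. Its change was -0.09 ± 0.07 (adjusted p = 0.294) after MI, with overlapping groups, and -0.54 ± 0.07 (adjusted p = 4.99e-06) after IR by counts, but 0.61 ± 0.08 (adjusted p = 7.83e-06) after MI and 0.14 ± 0.08 (adjusted p = 0.146) after IR by summed TPM.

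The Pfkfb genes make and remove fructose 2,6-bisphosphate, the activator of phosphofructokinase, and they divided in the same way. The cardiac form Pfkfb2 and the liver and muscle form Pfkfb1 fell, and the inducible forms Pfkfb3 and Pfkfb4 rose. Pfkfb3 had 51.8, 51.6, 53.7 and 50.8 CPM in MI against 19, 13.1, 19.9 and 13.2 CPM in MISham. It had 34, 47, 44.4 and 47.6 CPM in IR against 19.6, 19.3, 28.9 and 25.2 CPM in IRSham. Both pairs of groups stood apart, by 1.67 ± 0.16 (adjusted p = 9.95e-08) after MI and 0.90 ± 0.15 (adjusted p = 8.91e-05) after IR. Pfkfb2 ran from 17.6 to 27.5 CPM in MI against 81.6 to 115 in MISham (-2.32 ± 0.25), and from 17.8 to 40.4 CPM in IR against 75.1 to 104 in IRSham (-1.67 ± 0.25, and -2.28 without IR replicates 1 and 3). Pfkfb4 changed by 0.99 ± 0.14 after MI and 0.80 ± 0.14 after IR, and Pfkfb1, at 11.1 CPM or less in every library, by -1.84 ± 0.19 and -1.13 ± 0.19 in the same order, all with adjusted p-values of 8.37e-05 or less.

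**Figure D2:**
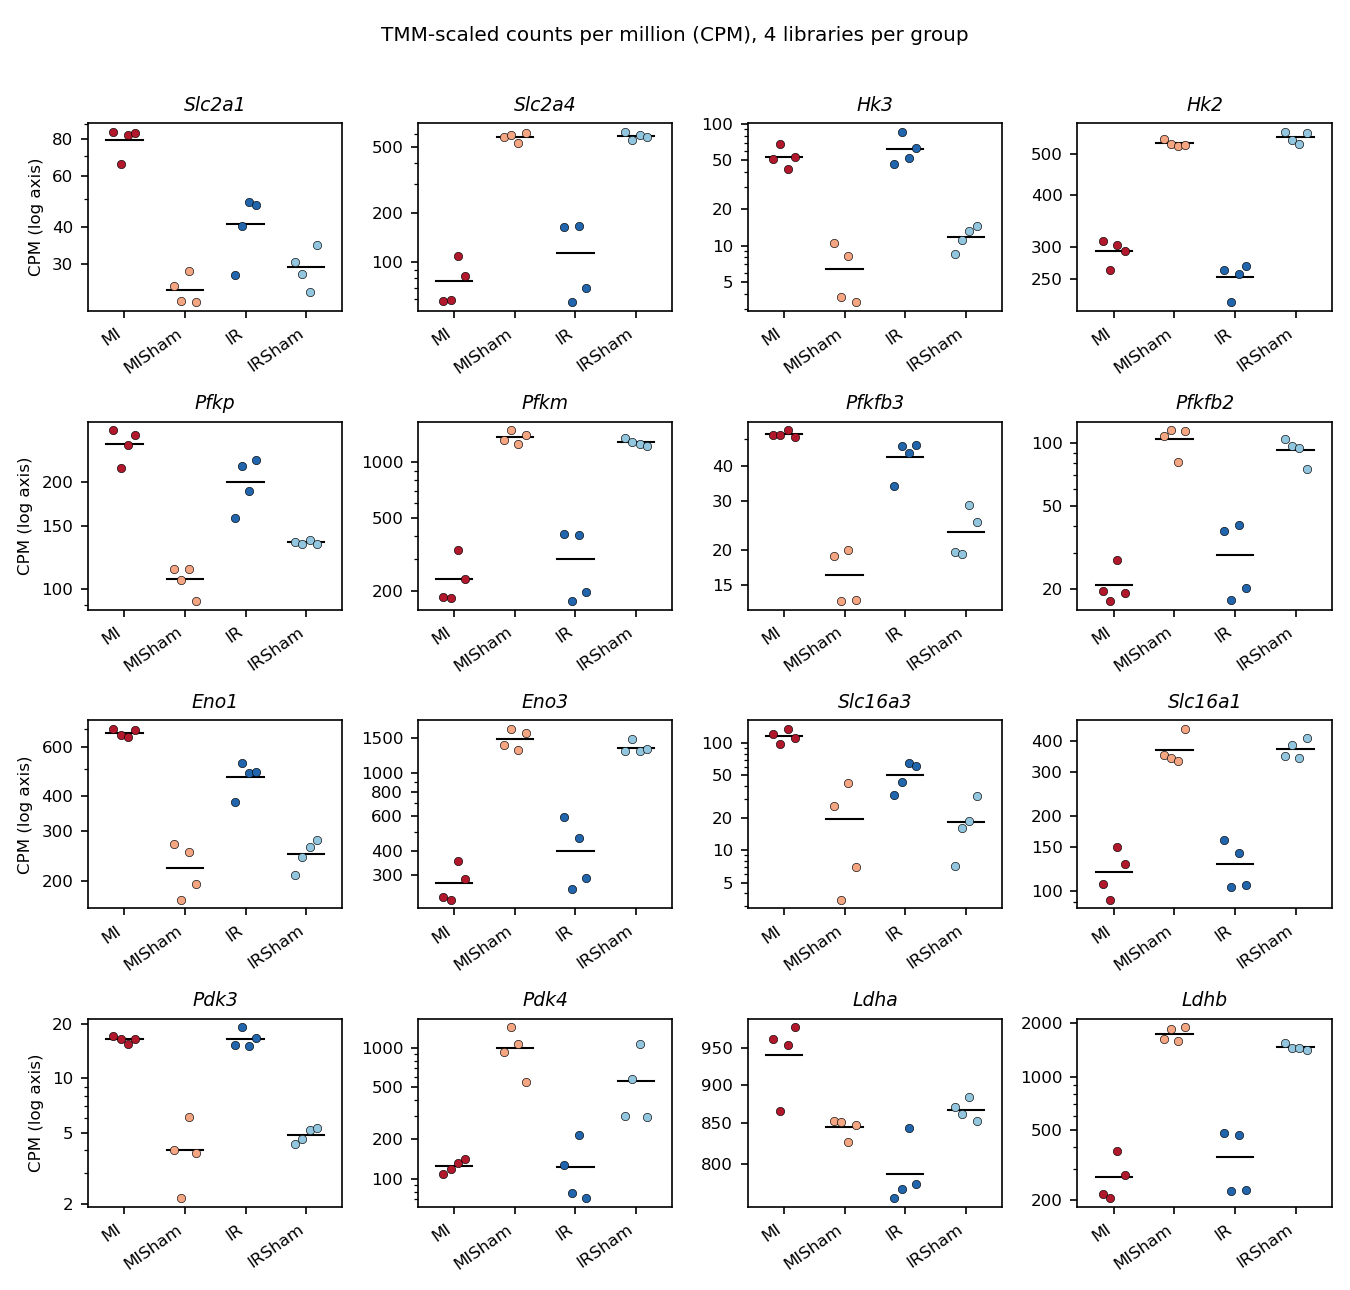
TMM-scaled CPM (y axes, log scale, starting above 0) of 16 genes in the 4 libraries of each group (x axes), with black lines at group means. Each pair of neighbouring panels sets a gene called higher after MI, or Ldha, which was not called, beside one called lower: Pfkfb3 lies at 50.8 to 53.7 CPM in MI and 13.1 to 19.9 in MISham, and Pfkfb2 at 17.6 to 27.5 in MI and 81.6 to 115 in MISham.

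In lower glycolysis the muscle forms Eno3 and Pgam2 fell and the widely expressed forms Eno1 and Pgam1 rose. Eno1, which makes phosphoenolpyruvate, had 698, 663, 653 and 694 CPM in MI against 270, 171, 254 and 195 CPM in MISham. It had 382, 526, 484 and 490 CPM in IR against 209, 242, 264 and 279 CPM in IRSham. Injured and sham libraries did not overlap (1.61 ± 0.14, adjusted p = 2.78e-08 after MI, 0.92 ± 0.14, adjusted p = 1.62e-05 after IR). Its muscle paralog Eno3 had 232, 226, 357 and 289 CPM in MI against 1375, 1667, 1298 and 1582 CPM in MISham. In IR it had 592, 255, 464 and 290 CPM against 1290, 1474, 1283 and 1313 CPM in IRSham. All injured libraries were below all shams, IR replicate 1 being the nearest and the IR change -2.30 without IR replicates 1 and 3 (-2.42 ± 0.23, adjusted p = 1.28e-07 after MI, -1.74 ± 0.22, adjusted p = 5.45e-06 after IR). The neuronal form Eno2 rose by 2.01 ± 0.23 after MI and 1.45 ± 0.22 after IR, at 7.64 CPM or less in every library.

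Pgam1, a phosphoglycerate mutase, was at 192 to 236 CPM in MI against 56.4 to 79.9 CPM in MISham, with 139 to 210 CPM in IR against 59.3 to 90.2 CPM in IRSham. Its muscle paralog Pgam2 was at 103 to 188 CPM in MI against 524 to 627 CPM in MISham, with 110 to 197 CPM in IR against 532 to 643 CPM in IRSham. The injured and sham libraries of both genes were far apart. Pgam1 rose by 1.70 ± 0.15 (adjusted p = 7.95e-08) after MI and 1.24 ± 0.15 (adjusted p = 3.43e-06) after IR, while Pgam2 changed by -2.09 ± 0.20 (adjusted p = 1.96e-07) and -1.89 ± 0.20 (adjusted p = 9.35e-07) in the same order. Aldoa, the main aldolase of muscle, averaged 1214 ± 131 CPM in MI against 2283 ± 132 in MISham, and 1124 ± 137 CPM in IR against 2231 ± 110 in IRSham, falling by 0.91 after MI and 0.99 after IR on the log2 scale. Aldoc, the brain aldolase, was near 0, with 2.35, 1.68, 2.18 and 2.05 CPM in MI against 0.481, 0, 0.0787 and 0 CPM in MISham. It had 1.13, 0.864, 1.21 and 0.957 CPM in IR against 1.09, 0.264, 0.886 and 0.409 CPM in IRSham, which overlap. Its MI change was called (3.79 ± 0.65, adjusted p = 6.35e-05) and its IR change was not (0.63 ± 0.55, adjusted p = 0.342), and with 2 shams at 0 the fitted size depends on the prior count. Tpi1, triose phosphate isomerase, was at 436 to 520 CPM in MI against 665 to 786 CPM in MISham, with 420 to 459 CPM in IR against 690 to 764 CPM in IRSham, lower by counts in both comparisons (-0.54 ± 0.08 after MI, -0.73 ± 0.08 after IR).

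Pgk1, phosphoglycerate kinase, was at 522 to 611 CPM in MI against 419 to 459 CPM in MISham, with 439 to 470 CPM in IR against 432 to 492 CPM in IRSham. By counts it was called higher after MI (0.38 ± 0.07, adjusted p = 0.000238) and stood at -0.01 ± 0.07 (adjusted p = 0.943) after IR. By summed TPM it was called higher after both, by 1.10 ± 0.08 after MI and 0.65 ± 0.08 after IR. The TPM scale lifts most genes of these injured libraries: the median change of all 14323 genes tested with limma on log2(summed TPM + 1) was 0.70 after MI and 0.57 after IR, with 66.3% of genes called higher and 12.8% lower after MI, and 62.3% higher and 12% lower after IR. On this scale 16 of 37 of the genes were called higher and 18 lower after MI, and 13 higher and 18 lower after IR. With TPM rescaled by the same method as the counts (TMM), which was tried after that shift was seen, the medians over all genes were 0.06 and 0.03, and 12 of the genes were higher and 20 lower after MI, and 10 higher and 23 lower after IR. With counts scaled by library size alone, 16 were higher and 20 lower after MI and 12 higher and 24 lower after IR, at medians over all genes of 0.393 and 0.323. The sign differed between counts and summed TPM for Gpi1, Pfkl and Tpi1 in both comparisons, for Gapdh after MI, and for Hk1, Ldha and Pgk1 after IR, and was the same for the other genes tested on both.

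Lactate dehydrogenase is a tetramer of the Ldha subunit, which favours lactate production, and the heart subunit Ldhb. Ldhb had 216, 205, 377 and 276 CPM in MI against 1622, 1864, 1587 and 1897 CPM in MISham. It had 479, 225, 467 and 229 CPM in IR against 1549, 1454, 1455 and 1413 CPM in IRSham. Injured and sham groups were far apart, by -2.70 ± 0.25 (adjusted p = 1.47e-07) after MI and -2.07 ± 0.25 (adjusted p = 3.17e-06) after IR, the IR change being -2.70 without IR replicates 1 and 3. Ldha had 964, 865, 955 and 980 CPM in MI against 853, 851, 826 and 848 CPM in MISham. In IR it had 760, 771, 844 and 776 CPM against 871, 861, 883 and 853 CPM in IRSham. The groups did not overlap in either comparison, yet neither change passed the test (0.16 ± 0.07, adjusted p = 0.0719 after MI and -0.14 ± 0.07, adjusted p = 0.118 after IR). By summed TPM both were called higher (0.80 ± 0.09 after MI, 0.49 ± 0.09 after IR), near the all-gene medians of 0.70 and 0.57 on that scale. With TPM rescaled by TMM limma gave 0.04 (adjusted p = 0.648) after MI and -0.16 (adjusted p = 0.0679) after IR.

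Of the lactate carriers, the widespread Slc16a1 (MCT1) was at 92.4 to 151 CPM in MI against 333 to 449 CPM in MISham, with 104 to 160 CPM in IR against 344 to 412 CPM in IRSham, and fell by 1.62 after MI and 1.54 after IR on the log2 scale. Slc16a3 (MCT4), the carrier of cells that export lactate, had 121, 98.3, 136 and 111 CPM in MI against 25.9, 3.46, 42.1 and 7 CPM in MISham. It had 33, 43.8, 65.1 and 61.5 CPM in IR against 7.19, 16.1, 18.9 and 31.8 CPM in IRSham. All injured libraries lay above their shams, and MISham replicates 1 and 3 were well above MISham replicates 2 and 4. The MI change was 2.56 ± 0.61 (adjusted p = 0.00214), and 4.49 without MISham replicates 1 and 3, its highest shams. The IR change of 1.46 ± 0.60 (adjusted p = 0.0503) missed the threshold by counts and passed it by summed TPM (2.01 ± 0.46, adjusted p = 0.000936).

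The genes that admit pyruvate to oxidation fell together. The complex's E1 subunits Pdha1 and Pdhb and its E2 subunit Dlat changed by -1.81 ± 0.16, -1.91 ± 0.16 and -1.74 ± 0.12 after MI. After IR their changes were -1.54 ± 0.16, -1.62 ± 0.16 and -1.46 ± 0.12. Pdha1 was at 248 to 362 CPM in MI against 966 to 1095 CPM in MISham, with 247 to 425 CPM in IR against 930 to 976 CPM in IRSham. Dlat was at 150 to 203 CPM in MI against 517 to 637 CPM in MISham, with 160 to 227 CPM in IR against 503 to 537 CPM in IRSham. The carrier subunit Mpc2 changed by -1.96 ± 0.18 after MI and -1.51 ± 0.18 after IR, and Mpc1 by -1.88 ± 0.15 and -1.22 ± 0.14 in that order by counts. The adjusted p-values of these 5 genes were 3.37e-06 or less in both comparisons, and injured and sham libraries did not overlap.

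The kinases that inactivate the complex did not move as one. Pdk4, the kinase raised by fasting and fatty acids, had 110, 120, 133 and 141 CPM in MI against 927, 1429, 1060 and 544 CPM in MISham. It had 128, 78.7, 215 and 71.3 CPM in IR against 303, 574, 1067 and 297 CPM in IRSham. The injured libraries lay below the shams, and the shams varied widely, with SDs of 365 CPM in MISham and 362 CPM in IRSham. The changes were -2.97 ± 0.47 (adjusted p = 6.89e-05) after MI and -2.18 ± 0.46 (adjusted p = 0.000935) after IR. Pdk2, the widely expressed kinase, was at 72.7 to 137 CPM in MI against 539 to 642 CPM in MISham, with 78 to 169 CPM in IR against 521 to 583 CPM in IRSham. Pdk1, a target of hypoxia-inducible factors, was at 96.2 to 127 CPM in MI against 257 to 293 CPM in MISham, with 85.1 to 142 CPM in IR against 235 to 280 CPM in IRSham. Neither gene's injured libraries reached the shams. Pdk2 changed by -2.60 ± 0.25 after MI and -2.13 ± 0.25 after IR, and Pdk1 by -1.23 ± 0.14 and -1.28 ± 0.14 in that order. The Pdk2 change after IR was -2.75, and that of Pdk4 -2.91, without IR replicates 1 and 3. By summed TPM the Pdk1 changes were smaller, -0.27 ± 0.11 (adjusted p = 0.0375) after MI and -0.50 ± 0.11 (adjusted p = 0.000893) after IR, and its MI call on that scale was lost without any 1 MI library, at -0.26 to -0.28, without MISham replicate 2 or 3 (-0.26) or without MISham replicate 4 (-0.28).

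Pdk3 was the one kinase of the 4 that rose. It had 17.3, 16.6, 15.6 and 16.6 CPM in MI against 4.01, 2.16, 6.1 and 3.83 CPM in MISham. In IR it had 15.3, 19.2, 15.2 and 16.8 CPM against 4.31, 4.62, 5.16 and 5.31 CPM in IRSham. The groups did not overlap, at 2.03 ± 0.20 (adjusted p = 1.32e-07) after MI and 1.77 ± 0.20 (adjusted p = 9.31e-07) after IR. On the per-length TPM scale Pdk3 was the lowest kinase in each group, averaging 10 in MI hearts, against 1.89 in MISham hearts, and 9.78 in IR hearts, against 1.8 in IRSham hearts. Pdk4 averaged 83.7 TPM in MI hearts, against 429 in MISham hearts, and 85.4 in IR hearts, against 249 in IRSham hearts.

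Ratios of paralogs within a library do not depend on how libraries are scaled, apart from the small constant added below. For 20 pairs the ratio of summed TPM (0.1 added to each) was compared with two-sided exact permutation tests over 4 against 4 libraries, 40 tests in all, whose smallest possible p of 0.0286 is 0.0346 after adjustment. After MI 18 of 20 ratios differed from MISham at that smallest p, 16 higher and 2 lower, and after IR 15 of 20 differed from IRSham, 14 higher and 1 lower. No such share was computed over other pairs of genes, so these counts do not set the pairs apart. By counts 34.8% of all genes were called higher and 30.2% lower after MI, and 29.5% and 28.2% after IR. Whether a ratio is higher or lower also depends on which gene was put first. Aldoc to Aldoa was not tested, since Aldoc averaged 0.448 TPM.

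Slc2a1 to Slc2a4 was 1.24, 0.931, 0.678 and 0.949 in MI, against 0.0395, 0.0362, 0.0489 and 0.0308 in MISham. It was 0.173, 0.676, 0.269 and 0.623 in IR, against 0.0474, 0.0591, 0.0342 and 0.0545 in IRSham. The log2 ratio was higher by 4.60 ± 0.23 (SE) after MI and 2.97 ± 0.51 after IR, and IR replicates 1 and 3 were the nearest to the shams. Ldha to Ldhb was 21.8, 15.4, 10.2 and 21.4 in MI, against 2.49, 2.64, 2.69 and 2.75 in MISham. It was 4.77, 10.7, 8.97 and 14.7 in IR, against 3.4, 2.86, 2.75 and 3.02 in IRSham. The ratio was higher in the injured libraries (log2 2.64 ± 0.26 after MI, 1.59 ± 0.35 after IR). Which subunit mRNA leads in the shams depends on the table: Ldhb TPM was low for its counts, as given below, and by CPM Ldha to Ldhb ran from 2.53 to 4.46 in MI, against 0.447 to 0.526 in MISham, and from 1.59 to 3.43 in IR, against 0.562 to 0.607 in IRSham. Counts per length averaged 432 for Ldha and 1783 for Ldhb in MISham.

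Eno1 to Eno3 ran from 1.16 to 2.05 in MI, against 0.0212 to 0.0793 in MISham, and from 0.378 to 1.44 in IR, against 0.0495 to 0.0845 in IRSham. Slc16a3 to Slc16a1 ran from 2.14 to 3.05 in MI, against 0.0335 to 0.326 in MISham, and from 0.516 to 1.6 in IR, against 0.0804 to 0.183 in IRSham. By summed TPM both of these ratios lay above 1 in all MI libraries and in some but not all IR libraries. By CPM Slc16a3 to Slc16a1 ran from 0.862 to 1.13 in MI and from 0.206 to 0.581 in IR, so that its position relative to 1 depends on the table. The log2 differences of the other ratios with large shifts were 3.75 ± 0.24 after MI and 2.70 ± 0.44 after IR for Pfkp to Pfkm, 3.85 ± 0.34 and 2.46 ± 0.38 for Pfkfb3 to Pfkfb2, 3.87 ± 0.28 and 3.15 ± 0.34 for Pgam1 to Pgam2, 3.70 ± 0.36 and 3.33 ± 0.32 for Hk3 to Hk2, and 4.76 ± 0.72 and 3.86 ± 0.61 for Pdk3 to Pdk4. Hk1 to Hk2 was higher by 0.88 ± 0.09 after MI and 0.69 ± 0.07 after IR, and by summed TPM it lay above 1 in every injured library and below 1 in every sham library. By CPM it lay below 1 in every library, at 0.725 to 0.889 in MI against 0.419 to 0.441 in MISham and at 0.752 to 0.96 in IR against 0.525 to 0.559 in IRSham.

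The ratios of the partner subunits Pdhb to Pdha1 and Mpc2 to Mpc1 moved little. Whether this has to do with sharing a complex was not tested. Pdhb to Pdha1 ran from 1.01 to 1.04 in MI, against 1.05 to 1.13 in MISham, and from 0.985 to 1.07 in IR, against 1.06 to 1.19 in IRSham. Mpc2 to Mpc1 ran from 0.519 to 0.564 in MI, against 0.567 to 0.623 in MISham, and from 0.456 to 0.543 in IR, against 0.546 to 0.588 in IRSham. These were the ratios that were lower, by -0.09 ± 0.02 and -0.12 ± 0.04 after MI, and for Mpc2 to Mpc1 by -0.21 ± 0.06 after IR. Pfkfb1 to Pfkfb2 and Pdk2 to Pdk4 were called in neither comparison, with differences of 0.35 ± 0.29 and 0.38 ± 0.38 after MI and 0.21 ± 0.33 and -0.07 ± 0.47 after IR. With CPM in place of TPM, 3 ratios lost their MI call: Slc2a12 to Slc2a4 (0.18, adjusted p = 0.168), Pdhb to Pdha1 (-0.10, adjusted p = 0.0737) and Mpc2 to Mpc1 (-0.11, adjusted p = 0.309).

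**Figure D3:**
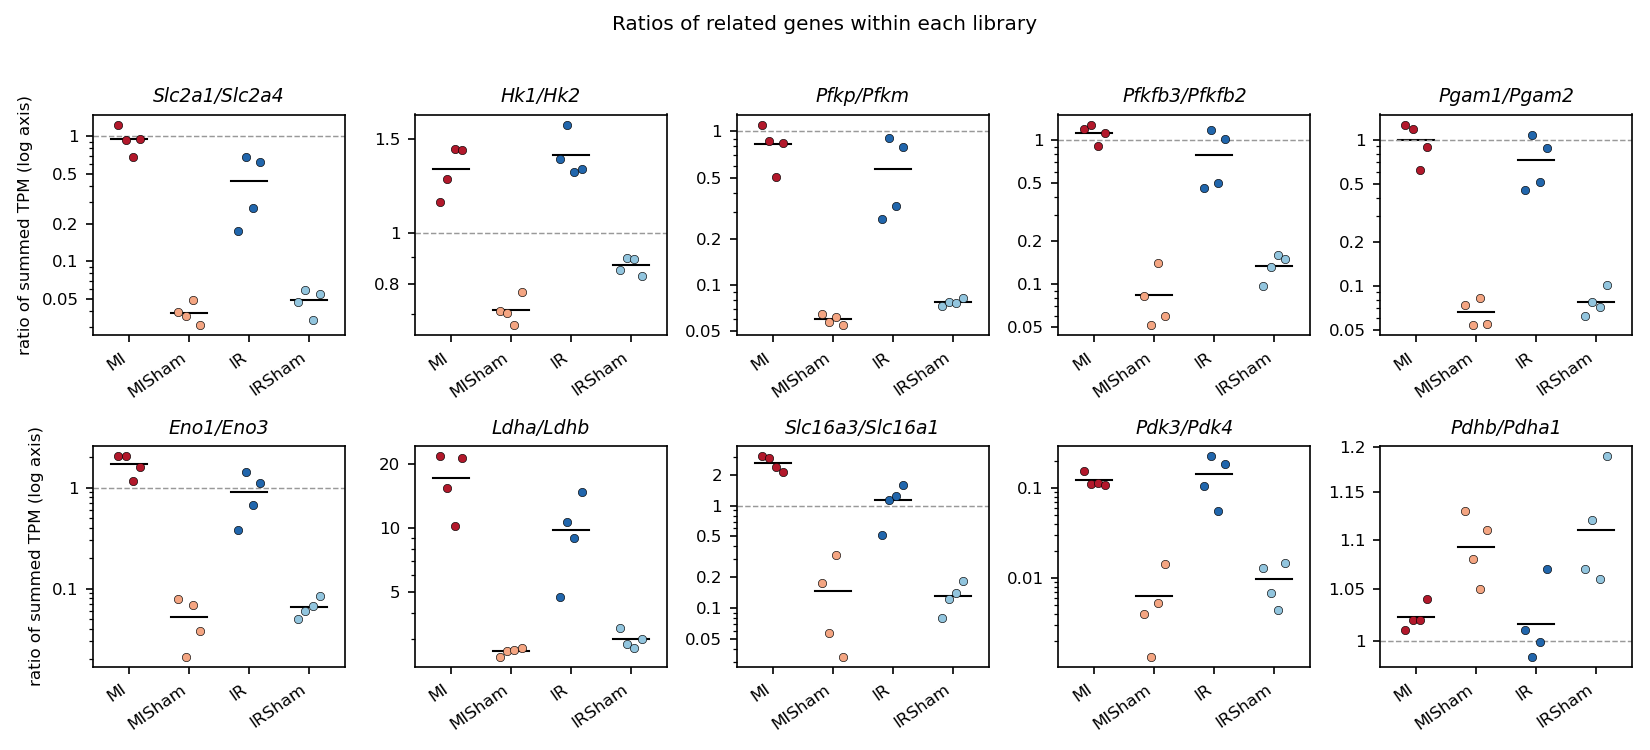
Ratio of the summed TPM of related genes (y axes, log scale) in the 4 libraries of each group (x axes), with black lines at group means and a dashed line at 1. Slc2a1 to Slc2a4 lies at 0.678 to 1.24 in MI and 0.0308 to 0.0489 in MISham, and at 0.173 to 0.676 in IR and 0.0342 to 0.0591 in IRSham, while Pdhb to Pdha1 stays between 0.985 and 1.19 throughout.

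Gapdh, Mpc1 and some other members have near copies elsewhere in the genome that can take their reads. A near copy was a gene of the count table whose sequence matches at least 50% of a member's coding sequence at 90% identity or more, and 14 members had 1 or more. The windows below show how alike they are over a stretch as long as a short read: 90 coding bases of each gene above those of a processed copy, with coding bases 418 to 507 for Gapdh, 244 to 333 for Mpc1 and 1 to 90 for Pgam1, read from the GRCm38 reference. Capitals mark the 1 base that differs, between Gapdh and Gm5559; the windows of the other 2 pairs are identical.
Gapdh: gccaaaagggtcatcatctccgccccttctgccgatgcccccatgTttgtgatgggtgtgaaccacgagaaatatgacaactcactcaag
Gm5559: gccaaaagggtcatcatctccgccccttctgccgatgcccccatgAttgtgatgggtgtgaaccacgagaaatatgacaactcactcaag
Mpc1: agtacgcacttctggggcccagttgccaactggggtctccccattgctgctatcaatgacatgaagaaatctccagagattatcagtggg
Mpc1-ps: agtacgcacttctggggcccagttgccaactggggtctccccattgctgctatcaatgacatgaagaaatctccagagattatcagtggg
Pgam1: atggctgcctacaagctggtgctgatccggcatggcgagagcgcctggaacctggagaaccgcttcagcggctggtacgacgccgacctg
Pgam1-ps2: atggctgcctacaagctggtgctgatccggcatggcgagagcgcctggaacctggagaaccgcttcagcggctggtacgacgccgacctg
Over all aligned bases, Gm5559 (chromosome 5) differs from Gapdh (chromosome 6) at 1 of 1002, Mpc1-ps (chromosome 12) from Mpc1 (chromosome 17) at 0 of 261, and Pgam1-ps2 (chromosome 7) from Pgam1 (chromosome 19) at 0 of 765.

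The copies took very different shares of the counts in the MI and MISham libraries and in the IR and IRSham libraries. Of the counts on Gapdh and its 157 copies, the copies held 54.3 to 62.3% in MI against 56.8 to 60.3% in MISham, and 1.92 to 4.38% in IR against 1.8 to 4.24% in IRSham. Mpc1-ps held 82.6 to 84.7% of the Mpc1 pair in MI against 81.4 to 83.5% in MISham, and 8.98 to 18.6% in IR against 7.94 to 20.1% in IRSham. The shares were alike in an injured group and its own sham, and the surgeries differed. The Gapdh gene itself averaged 5765 counts in MI hearts, against 2656 in MISham hearts, and 60066 in IR hearts, against 71483 in IRSham hearts, and Mpc1-ps 4001 in MI hearts, against 4710 in MISham hearts, and 182 in IR hearts, against 310 in IRSham hearts. Lesser shares went to copies of Eno1 (5.07% in MI hearts, against 5.61% in MISham hearts, and 1.11% in IR hearts, against 1.06% in IRSham hearts), Pgam1 (2.96, 3.42, 1.98 and 1.83% in that order of groups) and Pdhb (1.72, 2.26, 0.0434 and 0.0627%). The cause of the split between surgeries was not tested; the counts were deposited with no statement of how reads with several matches were treated.

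Gapdh, the classic reference gene of glycolysis, is read here from summed TPM, of which the copies also held a part: on average 17.5% in MI hearts, against 14% in MISham hearts, and 23.3% in IR hearts, against 14.2% in IRSham hearts. It had 2257, 1985, 1894 and 2217 TPM in MI, against 1918, 2121, 1761 and 1767 TPM in MISham. It had 1718, 2254, 1923 and 2062 TPM in IR, against 2438, 2443, 1857 and 1906 TPM in IRSham. The groups overlap in both comparisons, and neither change passed (0.14 ± 0.12, adjusted p = 0.286 after MI, -0.11 ± 0.12, adjusted p = 0.402 after IR). These values stand below the TPM medians of all genes given above, and with TPM rescaled by TMM the changes were -0.62 (adjusted p = 0.000335) after MI and -0.76 (adjusted p = 7.05e-05) after IR, so the call depends on the scaling. By counts Gapdh was -0.40 ± 0.14 (adjusted p = 0.0202) after MI, with overlapping groups, and -0.65 ± 0.14 (adjusted p = 0.000729) after IR. The MI count call was lost without MI replicate 2 (-0.33), MISham replicate 1 (-0.33) or MISham replicate 4 (-0.29).

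Pgam1 and Eno1 were higher on the TPM scale as well, Pgam1 by 2.45 ± 0.17 (adjusted p = 9.78e-09) after MI and 1.82 ± 0.17 (adjusted p = 3.03e-07) after IR, and Eno1 by 3.53 ± 0.29 (adjusted p = 4.45e-08) after MI and 2.48 ± 0.29 (adjusted p = 2.59e-06) after IR, each above the all-gene medians of that scale. Copies of Pgam1 held more of its TPM than of its counts, on average 22.9% in MI hearts, against 28.5% in MISham hearts, and 26.9% in IR hearts, against 22% in IRSham hearts. Mpc1 had 206, 189, 253 and 218 TPM in MI, against 453, 486, 451 and 527 TPM in MISham. It had 330, 239, 294 and 232 TPM in IR, against 441, 430, 437 and 441 TPM in IRSham. The carrier subunit was lower in all injured libraries on this scale also (-1.15 ± 0.11, adjusted p = 2.08e-07 after MI, -0.69 ± 0.11, adjusted p = 5.16e-05 after IR). For Tpi1 the 2 tables stand far apart: its summed TPM was 0.0116 times its counts per length in MI hearts, against 0.00748 in MISham hearts, and 0.0113 in IR hearts, against 0.00916 in IRSham hearts. The median of that measure over 9528 coding genes was 0.546 (quartiles 0.381 to 0.842). Its TPM change was 0.50 ± 0.53 (adjusted p = 0.392) after MI and 0.11 ± 0.53 (adjusted p = 0.856) after IR, of opposite sign to its called count changes. Ldhb stood at 0.14 in MI hearts, against 0.0963 in MISham hearts, and 0.163 in IR hearts, against 0.0999 in IRSham hearts on the same measure. Eno1 stood at 0.798 in MI hearts, against 0.292 in MISham hearts, and 0.736 in IR hearts, against 0.312 in IRSham hearts. The TPM changes of Eno1 thus exceed its count changes given above, and the size of its rise depends on the table. The cause was not tested.

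**Figure D4:**
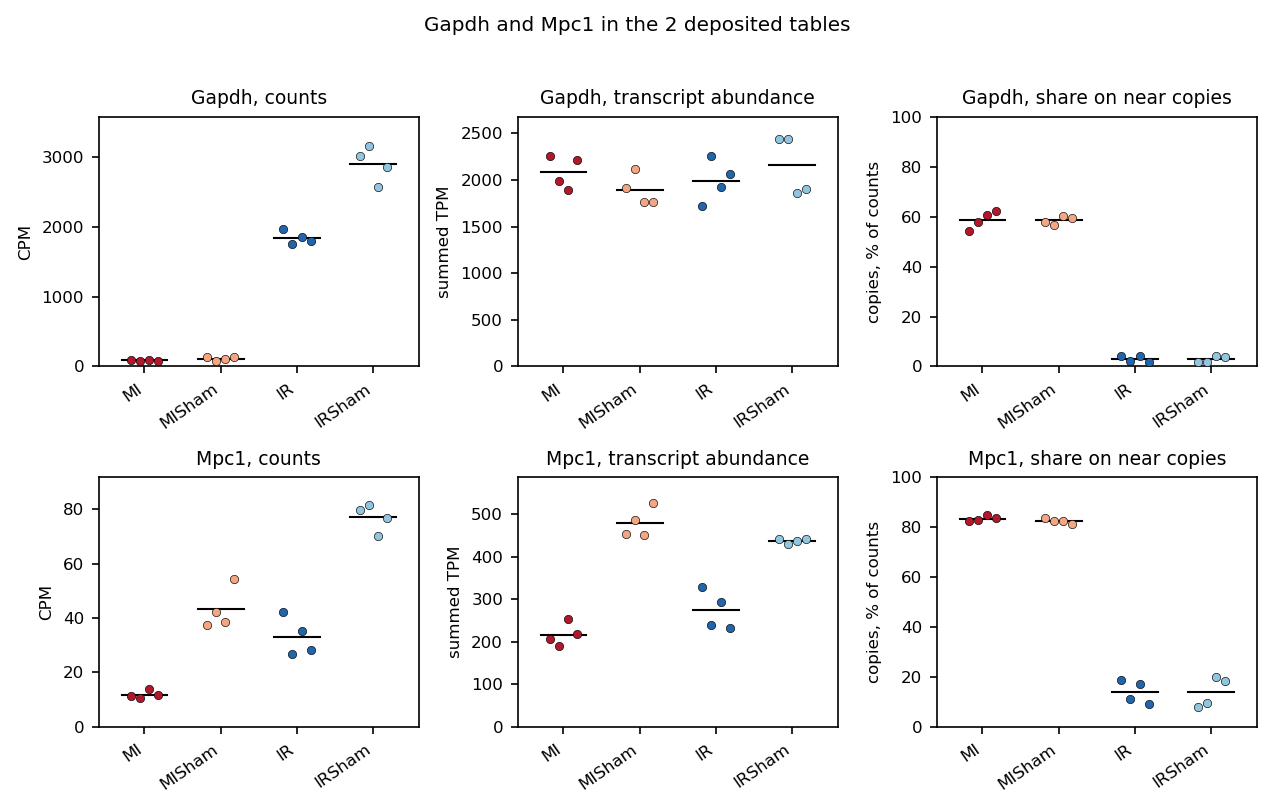
Gapdh (upper row) and Mpc1 (lower row) in the 4 libraries of each group (x axes): TMM-scaled CPM, summed TPM, and the percentage of the counts on the gene and its near copies that lay on the copies (y axes from 0), with black lines at group means. Gapdh CPM are 73.2 to 137 in MI and MISham and 1747 to 3155 in IR and IRSham, whereas its TPM lie between 1718 and 2443 in all groups.

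Transcript usage is the percentage that each transcript contributes to the summed TPM of its gene. It was tested with limma for 65 transcripts of 20 of the genes, and a call needed both an adjusted p under 0.05 and a shift of 10 percentage points or more. After MI 4 of the 65 transcripts were called, 2 of Pfkm and 2 of Gapdh. That share is near the 5.91% called among all 25606 transcripts tested, so the number of calls does not set these genes apart. Pfkm-201 held 38.5, 27, 29.9 and 34.5% in MI, against 9.06, 12.2, 12.2 and 12.2% in MISham. It held 22.3, 10.7, 11.5 and 13.5% in IR, against 10.5, 9.37, 12.3 and 15% in IRSham. The MI libraries lay above all their shams, by 21.1 ± 2.86 points (adjusted p = 0.000527), and IR replicate 1 alone stood above its shams. Pfkm-205 held 44.7, 51.6, 46 and 51.6% in MI, against 66.8, 64, 55.5 and 77.7% in MISham, a change of -17.5 ± 4.47 points (adjusted p = 0.0282). The pair shares its coding exons and 20 of 23 exons in all, so the transcripts differ outside the coding sequence.

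Gapdh-203 held 78.2, 34.5, 39.5 and 40% in MI, against 9.52, 9.8, 10.2 and 1.47% in MISham, and Gapdh-201 17.1, 53.1, 44.9 and 44.8% in MI, against 67.5, 62.2, 71 and 82.6% in MISham. MI replicate 1 stood far from the other MI libraries in both, and no MI library overlapped a sham. The changes were 40.3 ± 7.17 points (adjusted p = 0.00327) for Gapdh-203 and -30.8 ± 6.30 points (adjusted p = 0.0079) for Gapdh-201, which share their coding exons and 6 of 7 exons. After IR limma called 0 of the 65 transcripts, where 3.88% of all transcripts tested were called, and 5 had an unadjusted p under 0.05. Dlat-202, a processed transcript, came nearest, with 36.2, 33, 32.3 and 31.6% in IR against 24, 23.5, 22.2 and 26.3% in IRSham (9.27 points, adjusted p = 0.0447), under the threshold of 10 points. Whether usage changed more after MI than after IR was not tested.

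**Figure D5:**
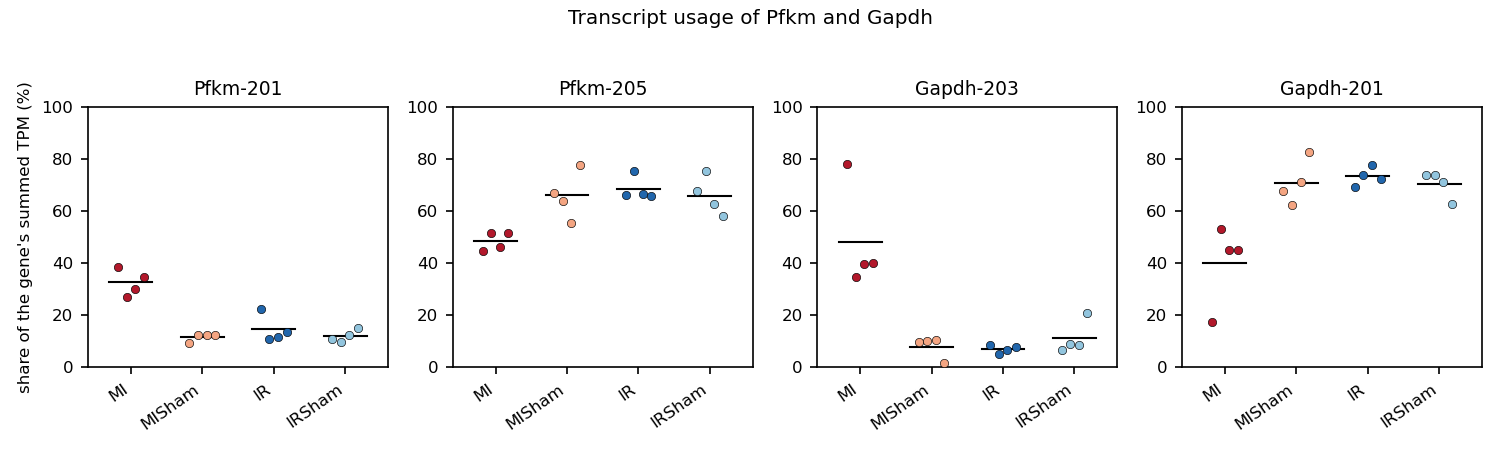
Contribution of the 4 called transcripts to the summed TPM of their genes (y axes, 0 to 100%) in the 4 libraries of each group (x axes), with black lines at group means. Pfkm-201 lies at 27 to 38.5% in MI and at 9.06 to 12.2% in MISham, and MI replicate 1 stands apart for both Gapdh transcripts at 78.2 and 17.1%.

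The MI and IR responses were compared directly as the difference of the 2 changes. By counts 2 of the 38 genes were called, both higher in the MI response, against 0.192% of all genes: Slc2a1 with a difference of 1.20 ± 0.23 (adjusted p = 0.0431) and Hk1 with 0.59 ± 0.11 (adjusted p = 0.0332). The Slc2a1 call was lost on leaving out any 1 MI library, MISham replicate 1, 2 or 4, IR replicate 2 or 4, or IRSham replicate 1, 2 or 4, at differences of 1.11 to 1.28. The Hk1 call was lost without MI replicate 1 or 4, MISham replicate 2 or 4, IR replicate 1, or any 1 IRSham library, at 0.53 to 0.62, and without IR replicates 1 and 3 (0.52, adjusted p = 0.0599). The Slc2a1 call was also lost with library size alone (1.21, adjusted p = 0.0521) and without the filter on low counts (1.20, adjusted p = 0.0581). By summed TPM limma called 0 of 37, against 0.126% of all genes, with 15 at an unadjusted p under 0.05, and Slc2a1 and Hk1 stood at 1.27 ± 0.25 and 0.59 ± 0.12 (both adjusted p = 0.0578). Genes nearest to the threshold by counts were Pfkp at 0.69 ± 0.15 (adjusted p = 0.0678) and Pfkl at 0.46 ± 0.10 (adjusted p = 0.0705), while Slc16a3 at 1.10 ± 0.83 and Pdk4 at -0.79 ± 0.62 had wide errors. The count of called genes moved with the libraries and the tool: it was 9 with DESeq2, 11 without MISham replicates 1 and 3, 1 without IR replicates 1 and 3, 4 without IR replicate 3, and 0 without MI replicate 1 or 4, MISham replicate 2 or 4, or IRSham replicate 1, 2 or 4.

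Between the sham groups, MISham against IRSham, 3 of the 38 genes were called by counts, all lower in MISham, against 3.2% of all genes: Gapdh at -4.68 ± 0.16 (adjusted p = 8.07e-12), Mpc1 at -0.84 ± 0.14 (adjusted p = 0.00113) and Hk1 at -0.38 ± 0.08 (adjusted p = 0.00445). The copies of both Gapdh and Mpc1 took a larger share of counts in MISham than in IRSham. For Gapdh that share averaged 58.6% in MISham and 2.94% in IRSham. The gene itself averaged 2656 counts in MISham against 71483 in IRSham, so gene and copies together also held far fewer counts in MISham. The cause was not tested. By summed TPM limma called 0 of 37, against 0.14% of all genes, with 5 at an unadjusted p under 0.05. Gapdh stood at -0.18 ± 0.12 and Mpc1 at 0.13 ± 0.11 on that scale, and Hk1 at -0.40 ± 0.08 (adjusted p = 0.0984), with no overlap between the sham groups of Hk1. Without MISham replicates 1 and 3, 11 genes were called by counts and 5 by summed TPM.

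Other genes of the pathway were read from lists of related genes, with up to 3 named in each direction by the size of the MI change. Among 13 tested genes of glucose and lactate transport, 5 were higher and 5 lower after MI, and 4 higher and 5 lower after IR (medians -0.21 and 0.16), shares near the 34.8% higher and 30.2% lower after MI and the 29.5% and 28.2% after IR of all genes. Emb, an accessory protein of lactate carriers, changed by 2.16 ± 0.18 after MI and 1.82 ± 0.18 after IR, Slc2a13, a myo-inositol transporter, by 1.91 ± 0.39 and 0.89 ± 0.37 (not called after IR), and Slc2a10 by 1.51 ± 0.16 and 1.64 ± 0.16. Txnip, which holds back glucose uptake, changed by -2.16 ± 0.30 after MI and -1.49 ± 0.29 after IR, and Tbc1d4, which gates the movement of GLUT4 to the membrane, by -1.59 ± 0.13 and -1.33 ± 0.13. Slc5a1, a sodium-coupled transporter, was called lower at mean levels under 0.9 CPM in all groups.

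Over all genes 34.8% were called higher and 30.2% lower after MI, and 29.5% higher and 28.2% lower after IR. Of 9 tested further enzymes of glycolysis and gluconeogenesis, 1 was higher and 7 lower after both MI and IR (medians -1.48 and -1.29). Adpgk, an ADP-dependent glucokinase, rose by 1.14 ± 0.11 after MI and 0.72 ± 0.11 after IR. Fbp2, the muscle fructose bisphosphatase of gluconeogenesis, changed by -2.97 ± 0.48 and -2.57 ± 0.48 in that order, and Ldhd, the D-lactate dehydrogenase, by -2.70 ± 0.23 and -2.48 ± 0.23. Of 12 tested further genes of pyruvate entry, 2 were higher and 10 lower after both (medians -1.74 and -1.41). The malic enzyme Me2 (1.33 ± 0.13 after MI, 1.04 ± 0.13 after IR) and Pck2, the mitochondrial phosphoenolpyruvate carboxykinase (1.17 ± 0.08, 1.01 ± 0.08), rose. The alanine aminotransferase Gpt (-2.48 ± 0.21, -2.05 ± 0.21), the malic enzyme Me3 (-2.41 ± 0.26, -1.92 ± 0.25) and Pdp2, the phosphatase that reactivates the dehydrogenase (-2.21 ± 0.18, -1.90 ± 0.18), fell.

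The glycogen list, 18 tested genes, had 3 higher and 15 lower after both MI and IR (medians -1.20 and -1.0). The shares of all genes were 34.8% higher and 30.2% lower after MI, and 29.5% and 28.2% after IR. The starch-binding Stbd1 (1.77 ± 0.19 after MI, 1.24 ± 0.19 after IR), the phosphoglucomutase Pgm2 (1.59 ± 0.16, 1.13 ± 0.16) and the liver glycogen phosphorylase Pygl (1.56 ± 0.23, 1.20 ± 0.23) rose. The muscle phosphorylase Pygm (-2.45 ± 0.24, -2.01 ± 0.24), its kinase subunit Phkg1 (-3.18 ± 0.38, -1.92 ± 0.37) and the glycogen phosphatase Epm2a (-2.21 ± 0.19, -1.95 ± 0.19) fell. Of the phosphorylases named here, the liver form Pygl was higher and the muscle form Pygm lower.

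The pentose phosphate and hexosamine branches, 15 tested genes, had 9 higher and 3 lower after both MI and IR (medians 0.70 and 0.61). Of all genes 34.8% were called higher and 30.2% lower after MI, and 29.5% and 28.2% after IR. G6pdx, the entry enzyme of the pentose phosphate pathway, averaged 51.6 ± 6.41 CPM in MI against 13.7 ± 3.05 CPM in MISham, and 52.8 ± 10.1 CPM in IR against 17.4 ± 3.45 CPM in IRSham (1.91 ± 0.18 after MI, 1.60 ± 0.17 after IR). Pgd, the next dehydrogenase (1.66 ± 0.11, 1.15 ± 0.11), and the transketolase Tkt (1.54 ± 0.13, 1.21 ± 0.13) rose as well. Lower were the polyol pathway genes Sord (-2.36 ± 0.19, -1.67 ± 0.18) and Akr1b3 (-1.25 ± 0.08, -0.95 ± 0.08) and the pentose isomerase Rpia (-0.25 ± 0.10, -0.30 ± 0.10).

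Of 24 transcription and signalling regulators of the pathway, 4 were higher and 14 lower after MI, and 4 higher and 17 lower after IR (medians -0.79 and -0.81). All genes had 34.8% higher and 30.2% lower after MI, and 29.5% and 28.2% after IR. Myc, a factor that raises glycolytic genes in growing cells, averaged 36.4 ± 4.02 CPM in MI against 7.54 ± 2.40 CPM in MISham, and 22.1 ± 5.96 CPM in IR against 8.77 ± 2.26 CPM in IRSham (2.26 ± 0.24 after MI, 1.34 ± 0.24 after IR). The hypoxia factor Hif1a (0.74 ± 0.10, 0.56 ± 0.10) and the AMP-activated kinase subunit Prkaa1 (0.59 ± 0.08, 0.32 ± 0.08) rose. Klf15, a factor that supports Slc2a4 transcription in muscle (-3.07 ± 0.39, -2.23 ± 0.38), Ppara, the fatty acid receptor that raises Pdk4 (-2.69 ± 0.30, -2.36 ± 0.30), and the coactivator Ppargc1a (-2.54 ± 0.33, -2.13 ± 0.33) fell. The lists were chosen with earlier results of these data known, so their counts are descriptions of these libraries.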

How the data were processed

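The authors deposited a table of raw read counts per gene (63318 genes) and a table of transcript abundances in TPM (163740 transcripts), with 1 column per short-read library; 2 columns tied to no sample were not used. Per the submitters' processing notes, the tools were kallisto 0.50.1, featureCounts 2.0.1, HISAT2 2.2.1 and SAMtools 1.7, and the genome GRCm39, with no roles stated. The annotation release, the strand setting and the handling of reads with several matches are not given in the sources used here, and antisense reads cannot be told apart. Symbols came from GENCODE M21 by Ensembl ID (52081 genes matched), and 138330 transcripts were matched to a gene; the rest held 21.6 to 31.9% of TPM.

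Counts were fitted with edgeR 4.0.16 (TMM, filterByExpr at min.count 10 and min.total.count 15, robust quasi-likelihood test, 1 mean per group over 16 libraries, R 4.3.3), with adjustment over 19741 genes. TPM were summed per gene and tested as log2(summed TPM + 1) with limma 3.58.1 where the mean was at least 1; such fold changes understate those of low genes. Usage was tested for genes with a mean of at least 5 TPM and 2 or more transcripts at a mean share of at least 5%. Ratios used exact permutation tests (scipy 1.17.1), and near copies were found with blastn 2.17.0. Alternatives were DESeq2 1.42.0, other scalings, filters and pseudocounts, a replicate block, and leaving out libraries. The fits were tested on simulated data. The members and lists were chosen with earlier results of these data known, and the genes named from the lists were the 3 largest called changes in each direction after MI, apart from 1 gene that is not reported here. Counting intervals were not used, since each value rests on 4 libraries; the library totals limit the precision of genes such as Aldoc, at a few CPM or less.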

Additional observations from a re-analysis of the deposited data

Results flagged for a closer look

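In 6 of 152 groups of 4 libraries, 1 library stood apart from the other 3 in the level of a gene; chance flags about 1 in 20 groups. Slc2a1 was at 65.9 CPM in MI replicate 2, against 82.7 to 85 CPM in the other MI libraries. Pfkfb1 was at 5.04 CPM in IR replicate 3, against 2.79 to 3.08 CPM in the others. Aldoc was at 0.481 CPM in MISham replicate 1, against 0 to 0.0787 CPM in the others. Eno3 was at 1474 CPM in IRSham replicate 2, against 1283 to 1313 CPM in the others. Ldha was at 826 CPM in MISham replicate 3, against 848 to 853 CPM in the others. Slc16a1 was at 449 CPM in MISham replicate 4, against 333 to 352 CPM in the others.

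The MI and IR responses differed by the test of the difference itself for Slc2a1 (1.20 on the log2 scale, adjusted p = 0.0431) and Hk1 (0.59, adjusted p = 0.0332), in edgeR's fit. Both calls were lost when certain single libraries were left out and with the replicate numbers as a block, and that of Slc2a1 also with library size alone and without the filter on low counts.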

How the results depend on the processing

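The counts of genes called after MI and after IR were within 1.5 times their reported values under every alternative run, at 34 to 35 after MI and 33 to 35 after IR on leaving out each library in turn, and 33 to 34 and 31 to 33 by summed TPM. Usage calls after MI ranged from 3 to 5.

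The count of genes with different MI and IR responses (2) was 1 with library size alone, 9 with DESeq2, 1 without IR replicates 1 and 3, 11 without MISham replicates 1 and 3, and 0 to 4 on leaving out single libraries. By summed TPM (0) it was 5 without MISham replicates 1 and 3 and 0 to 2 on leaving out single libraries. Between the shams the count (3) was 11 without MISham replicates 1 and 3 and 3 to 4 without single libraries, and by summed TPM (0) it was 1 without IR replicates 1 and 3, 5 without MISham replicates 1 and 3, and 0 to 1 without single libraries. Usage calls after IR (0) were 1 at a threshold of 5 points and 0 to 1 without single libraries. Turns of sign are listed here only where the change was called under the reported or the other scaling. With library size alone the sign turned for Gpi1 (0.04) and Pfkl (0.22) after MI and Pgk1 (0.28) after IR. With TPM rescaled by TMM, added after seeing the data, it turned for Pfkl (-0.13) and Gapdh (-0.62) after MI, and for Pfkl (-0.48), Gpi1 (-0.60), Hk1 (-0.47) and Ldha (-0.16) after IR. The cause of these changes was not tested.

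Replicate numbers did not pair the libraries: same-numbered libraries correlated between -0.124 and 0.117 in their deviations, and not every library correlated best with its own number. With the replicate block 35 genes were called after MI, 35 after IR and 0 for the difference, at 1.22 (adjusted p = 0.107) for Slc2a1 and 0.59 (adjusted p = 0.139) for Hk1. No paired analysis was possible because of nesting for MISham against IRSham, which has no block value.

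Injury and sampled region cannot be told apart between surgeries, 4 libraries a group cannot go below p = 0.0286 in the exact tests, and counts on near copies limit Gapdh and Mpc1.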
